A study of Caenorhabditis elegans with 3 samples.

Results

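The 6 Hox genes of Caenorhabditis elegans, ceh-13, lin-39, mab-5, egl-5, php-3 and nob-1, were examined for peaks of the chromatin regulator EGL-27 in L4 larvae. They are 6 of 19985 protein-coding genes in the annotation, chosen by name, and all 6 matched it. Each gene was given a window made of its gene body and 10000 bp to each side of its transcript starts, and a peak counted for a gene when its summit lay in that window. ChIP-seq libraries came from 1 group of mixed-sex, whole L4 larvae of strain OP177, which carries unc-119(ed3) on chromosome III and the transgene wgIs177. That transgene expresses EGL-27 with a GFP-FLAG tag at its C-terminus, all animals come from this single transgenic line, and the labels name no egl-27 mutation. They give the antibody as egl-27, which does not settle whether the tag or EGL-27 itself was precipitated, and do not name the promoter that drives the transgene. The labels give 3 biological replicates (1, 2 and 4) of 1 technical replicate each. There was no second condition, so the genes were compared with the rest of the genome and not between treatments, and every comparison is a description without a test.

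Hox genes encode homeodomain transcription factors that give cells their identity along the body axis from head to tail. In C. elegans, ceh-13 is the labial-type anterior gene. lin-39, of the Deformed and Sex combs reduced type, acts in the mid-body and in vulval precursor cells. mab-5, of the Antennapedia type, acts in the posterior body and in migrating Q neuroblast descendants. egl-5, of the Abdominal-B type, acts in the tail. php-3 and nob-1 are neighbouring Abdominal-B-type paralogs of the posterior end. EGL-27 is related to the MTA proteins of NuRD, a nucleosome remodelling and deacetylase complex, and one of its domains is a zinc finger of the GATA type. Worms mutant for egl-27 are known from genetics for altered Hox-dependent patterning and cell migration.

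Peaks that the results turn on are shown as sequence, so the DNA under 1 pooled summit for each of 5 genes can be read. For each gene this is the summit of highest pooled signal among those of its window that the most libraries overlapped. That number was 2 libraries for mab-5 and egl-5, but only 1, replicate 2, for ceh-13, php-3 and nob-1. Each sequence has 75 bp to each side, on the plus strand of chromosome III (WBcel235, the same assembly as ce11, with genome sequence from RefSeq). The positions are chrIII:7546411-7546561 for ceh-13, chrIII:7784367-7784517 for mab-5, chrIII:7812736-7812886 for egl-5, chrIII:12072119-12072269 for php-3 and chrIII:12092946-12093096 for nob-1. Capitals mark matches to the motifs searched, on either strand.
ceh-13: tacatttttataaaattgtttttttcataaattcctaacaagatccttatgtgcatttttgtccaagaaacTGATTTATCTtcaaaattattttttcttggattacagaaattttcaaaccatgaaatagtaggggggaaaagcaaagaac
mab-5: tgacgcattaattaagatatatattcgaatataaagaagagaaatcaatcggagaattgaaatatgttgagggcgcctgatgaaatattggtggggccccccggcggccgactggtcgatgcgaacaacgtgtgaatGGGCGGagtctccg
egl-5: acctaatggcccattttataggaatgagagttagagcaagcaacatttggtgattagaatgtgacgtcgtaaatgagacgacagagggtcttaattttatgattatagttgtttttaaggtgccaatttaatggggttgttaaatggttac
php-3: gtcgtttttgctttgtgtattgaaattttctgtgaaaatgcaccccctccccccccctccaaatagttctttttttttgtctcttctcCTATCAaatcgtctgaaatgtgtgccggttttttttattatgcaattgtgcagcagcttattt
nob-1: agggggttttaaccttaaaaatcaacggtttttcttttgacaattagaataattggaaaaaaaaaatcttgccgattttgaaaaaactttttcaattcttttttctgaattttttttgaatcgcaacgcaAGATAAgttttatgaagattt
In the ceh-13 sequence a Hox and PBX type site overlaps a GATA site. The mab-5 sequence holds GGGCGG, and the php-3 and nob-1 sequences hold 1 GATA site each. None of the searched motifs matched within the egl-5 sequence, which is centred on the pooled summit. The replicate 1 and 2 summits of that peak lay 282 and 148 bp away, beyond the printed bases. GC content was 26.5% for the ceh-13 sequence, 47% for mab-5, 35.8% for egl-5, 38.4% for php-3 and 25.8% for nob-1.

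Peak lists of several kinds were used. The reproducible list holds the 102 peaks that the authors kept by the irreproducible discovery rate (IDR) procedure, which asks whether peaks recur between replicates. The pooled list holds 30000 peaks from all 3 libraries together and includes background by its deposited name. Replicates 1, 2 and 4 have lists of 9666, 13686 and 6636 peaks. The depth of the libraries is unknown, as no read counts were used, and the authors' signal values were compared only within 1 list.

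No Hox gene had a reproducible peak in its window (0 of 6, against 2.1% of all protein-coding genes and 3.26% of those on chromosome III). The nearest reproducible peak to ceh-13, lin-39, mab-5 and egl-5 lay at 7207917 to 7208346 on chromosome III, with a signal of 20.4. Its distance was 348 kb from ceh-13, 327 kb from lin-39, 575 kb from mab-5 and 606 kb from egl-5. For php-3 and nob-1 it lay at 12250217 to 12250646, with a signal of 19.5, at 173 kb from php-3 and 166 kb from nob-1. The reproducible list has 19 peaks on the whole of chromosome III. At that rate the 108 kb covered by the 6 windows would hold 0.148 summits, so a count of 0 there is near the background and says little about the Hox genes.

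In the pooled list, all 6 Hox genes had a summit in their window. So did 98.9% of all protein-coding genes and 99.7% of those on chromosome III. The counts were 5 for ceh-13, 4 for lin-39, 6 for mab-5, 8 for egl-5, 3 for php-3 and 4 for nob-1. The median was 4.5 summits for the Hox genes, against 6 for all protein-coding genes and 7 for those of chromosome III. Only egl-5 stood above both of these medians, while mab-5 equalled the median of all genes. Some summits of the egl-5 window were nearer to a start of cyk-7 or egl-45, and a pair of its peaks overlapped each other. In replicates 1, 2 and 4 egl-5 had 2, 1 and 1 summits. The medians of all protein-coding genes there were 2, 3 and 1, so egl-5 was not above them. The share of all protein-coding genes with as many summits or more was 29.9% for egl-5, 56% for mab-5, 69.7% for ceh-13, 82% for both lin-39 and nob-1, and 91% for php-3. None of the 6 was therefore at an extreme of the distribution. Windows of the same length laid end to end along chromosome III gave much the same picture: 32.7% of 688 windows held as many summits as egl-5, and 93.8% of 689 windows held as many as php-3.

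**Figure D1:**
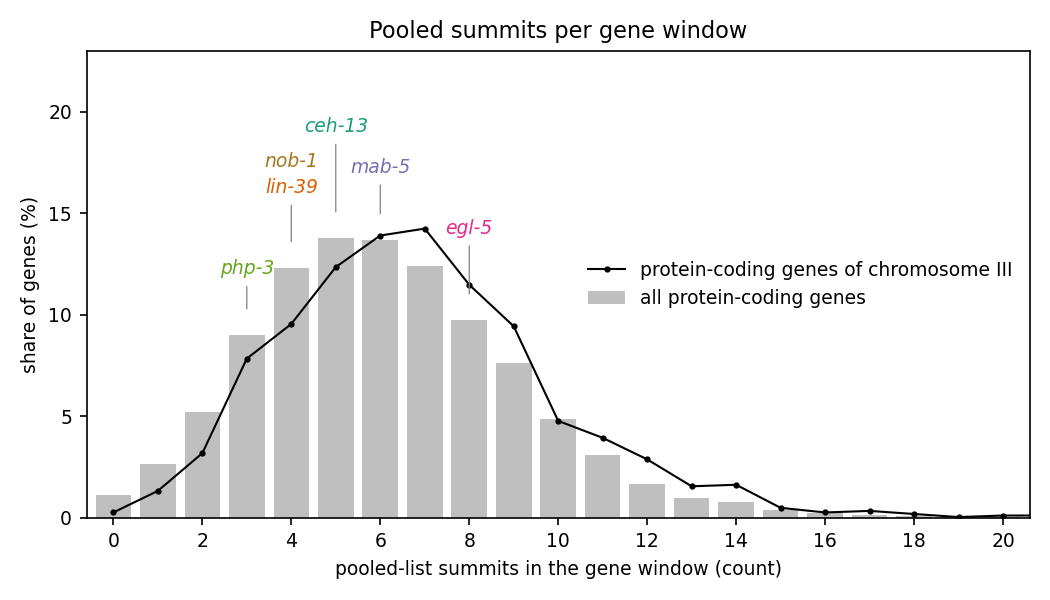
Pooled-list summits per gene window (x axis, count) against the share of genes with that count (y axis, percent); the line shows the 2640 protein-coding genes of chromosome III and the bars all 19985 protein-coding genes. The 6 Hox genes are marked at their counts and lie between 3 (php-3) and 8 (egl-5), within the body of the distribution; 34 genes beyond 20 summits, the highest with 50, are not drawn.

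Counting each position once, the 6 windows held 26 pooled summits in 108 kb, or 2.42 per 10 kb (exact Poisson 95% interval 1.58 to 3.54), against 3.22 per 10 kb on chromosome III, a rate inside that interval. These intervals cover counting error only and treat neighbouring peaks as independent, which they are not. Replicate 1 had 1.02 summits per 10 kb in the Hox windows (0.51 to 1.83), against 1.04 on chromosome III. Replicate 2 had 1.21 (0.643 to 2.07), against 1.45. In both replicates the interval of the Hox windows included the chromosome's rate. Replicate 4 had 0.279 (0.0575 to 0.815), against 0.764, with 3 summits where the chromosome's rate would give 8.22. Its interval included the chromosome's rate too, near its upper end.

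Read gene by gene, a replicate 1 summit lay in the window of 5 of 6 Hox genes, all but php-3. The share was 83% of all protein-coding genes and 87% of those on chromosome III. Replicate 2 had a summit in the windows of 6 of 6, against 90.9% and 95%. Replicate 4 had one in those of 3 of 6, against 68% and 76.3%. The genes with a replicate 4 summit were lin-39, mab-5 and egl-5, with 1 each, and those without were ceh-13, php-3 and nob-1. Replicates 1, 2 and 4 counted 2, 3 and 0 summits for ceh-13, 2, 3 and 1 for lin-39, and 4, 4 and 1 for mab-5. They counted 2, 1 and 1 for egl-5, 0, 2 and 0 for php-3, and 1, 2 and 0 for nob-1. mab-5 had the most single-library summits of the 6 genes and php-3 the fewest.

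The Hox genes lie in 3 pairs on chromosome III. For each gene the 2 pooled peaks of highest signal are described, and others were picked out after their values were seen. The anterior and mid-body pair is ceh-13 (WBGene00000437, 7555660 to 7558041, plus strand) and lin-39 (WBGene00003024, 7528641 to 7536632, minus strand). They face away from each other across 19 kb that hold no other protein-coding gene. This gap held 7 pooled summits, 2 of replicate 1, 2 of replicate 2 and 0 of replicate 4.

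**Figure D2:**
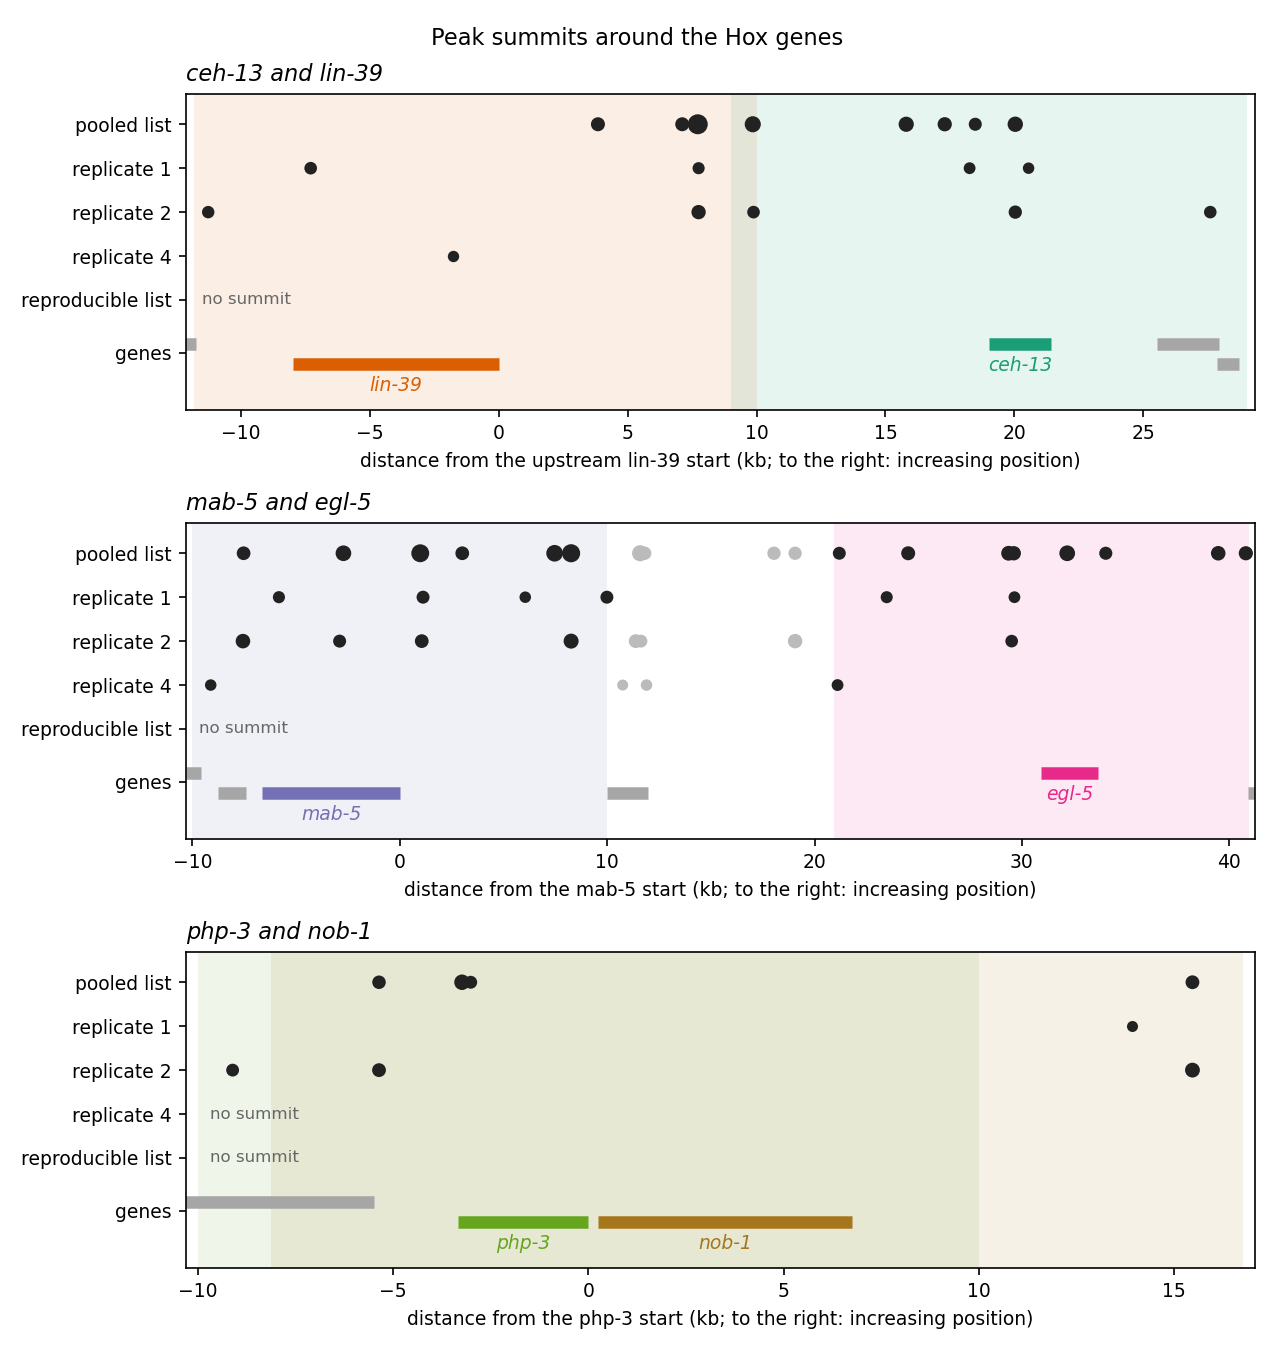
Summits around the 3 Hox gene pairs; the x axis is distance in kb from the named start, with each list on its own row and larger dots for higher signal within a list. Coloured bars are the Hox genes, shaded areas their windows, grey bars other protein-coding genes and grey dots summits outside the windows. No pair has a reproducible summit, and the 8 pooled summits of egl-5 lie on both sides of the gene and inside it.

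The Hox-window peak of highest signal belonged to lin-39. It had a pooled signal of 13.1 (rank 434 of 30000) and lay 7721 bp upstream of the nearest lin-39 start. It falls inside linc-57, a long intergenic non-coding RNA gene on the minus strand. Replicate 1 had an overlapping peak with a signal of 3.06 (rank 3603), whose summit was 32 bp away. Replicate 2 had one with a signal of 5.3 (rank 2966), 31 bp away, and replicate 4 had none. So the best peak of the Hox windows was found by 2 of 3 libraries at nearly the same position, and a second pooled peak in linc-57 (7543535 to 7543964, signal 4.91, rank 17670) was overlapped by none. Among all protein-coding genes, 7.99% had a best pooled signal as high as that of lin-39 or higher.

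Near the promoter of lin-39 itself the pooled list had no summit within 2000 bp. Replicate 4 alone had a peak there, at 7534631 to 7535070 with a signal of 2.37 (rank 4818 of 6636), 46 bp upstream of the inner of the gene's 2 starts. No pooled peak and no peak of another library overlapped it. Replicate 1 alone had a peak in a lin-39 intron, at 7529106 to 7529565 with a signal of 3.52 (rank 2169). These 2 summits, in different parts of the gene, were each seen in a single library.

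ceh-13 and lin-39 shared 1 pooled peak, at 7546271 to 7546700, with a signal of 7.42 (rank 5093). It was the best peak of ceh-13 and the second of lin-39, although it lay 9174 bp upstream of ceh-13 and 9854 bp upstream of lin-39. The nearest annotated start of any kind was that of the microRNA gene cel-mir-231, at 1331 bp. Replicate 2 overlapped it with a signal of 3.52 (rank 10512 of 13686), and replicates 1 and 4 did not. The second peak of ceh-13 was intronic, at 7556455 to 7556884, with a signal of 6.52 (rank 8003), 1010 bp downstream of the start. Replicate 2 had its summit at the same base, with a signal of 4.19 (rank 6521), and the other libraries had no overlapping peak. Nearer to the promoter, a peak 542 bp upstream of ceh-13 had a signal of 3.93 (rank 26646) and was overlapped by replicate 1 alone (signal 2.78). The best signal of ceh-13, 7.42, was reached or passed by 59.8% of all protein-coding genes.

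The second pair is mab-5 (WBGene00003102, 7776835 to 7783454, minus strand) and egl-5 (WBGene00001174, 7814374 to 7817141, plus strand), divergent across 30.9 kb that hold 1 other protein-coding gene, cyk-7. The gap between them held 12 pooled summits, 5 of replicate 1, 6 of replicate 2 and 3 of replicate 4. It includes 3 of the 5 best pooled signals found in any Hox window, all of them upstream of mab-5.

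The peak nearest to a mab-5 start lay at 7784227 to 7784656, 988 bp upstream, with a pooled signal of 9.91 (rank 1572). Replicate 1 overlapped it with a signal of 3.86 (rank 1545 of 9666, the best rank of that library in any Hox window) and a summit 135 bp away. Replicate 2 overlapped it with a signal of 4.65 (rank 4797) and a summit 72 bp away, and replicate 4 did not. Further upstream, at 7791501 to 7791930, a peak with a signal of 10.2 (rank 1393) was the highest of mab-5. It lay 8262 bp from the mab-5 start but 3580 bp from the start of cyk-7, and replicate 2 alone overlapped it, at the same base and with a signal of 6.09 (rank 1566). Another peak, between them and close to the one near cyk-7, had a signal of 8.15 (rank 3572) and no overlap in any library. For mab-5, then, the peak of highest signal had 1 library behind it and the slightly lower one near the start had 2. A best signal as high as 10.2 was found for 22.7% of all protein-coding genes.

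Within mab-5, an intron peak at 7780523 to 7780952 had a signal of 6.87 (rank 6726) and an overlap in replicate 2 alone (signal 3.89, rank 8100). A peak inside the window of mab-5 at 7775709 to 7776138 lay 103 bp from the start of another gene, bath-15. It had a pooled signal of 4.59 (rank 20586), and replicate 2 overlapped it with a signal of 5.57 (rank 2393). No other pooled summit of the Hox windows was as close as 500 bp to the start of any protein-coding gene, and bath-15 is not a Hox gene.

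egl-5 had the most pooled summits, 8, but lower signals, from 3.82 to 6.95. Its highest, 6.95 (rank 6489), lay in an egl-5 intron at 7815422 to 7815851, 1257 bp downstream of the start, and no library overlapped it. The next, at 7812596 to 7813025, had a signal of 5.83 (rank 11481) and lay 1563 bp upstream. It overlapped a neighbouring pooled peak, at 7812844 to 7813273, with a signal of 5.34 (rank 14290). Both were overlapped by the same replicate 1 peak, with a signal of 2.72 (rank 5266), and the same replicate 2 peak, with a signal of 3.53 (rank 10478). The replicate 1 and 2 summits lay 282 and 148 bp from the first pooled summit, and 34 and 100 bp from the second. These 2 pooled peaks therefore rest on the same single-library peaks, and whether they are separate sites was not tested. The peak farthest upstream, at 7804433 to 7804862, lay 9726 bp from the egl-5 start and nearer to that of cyk-7, at 9239 bp. It had a signal of 3.82 (rank 28737) and was the single Hox-window pooled peak with a replicate 4 overlap (signal 2.77, rank 3246). The best signal of egl-5 was reached or passed by 68.6% of all protein-coding genes, so its count was in the upper part of the distribution and its best signal in the lower part.

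The posterior pair, php-3 (WBGene00004024, 12074218 to 12077556, minus strand) and nob-1 (WBGene00003779, 12077793 to 12084316, minus strand), lies head to tail with 236 bp between the genes. No list had a summit in that gap. The highest peak of both windows, at 12074104 to 12074533, had a signal of 6.7 (rank 7435), lay in the 3' UTR of php-3 and was overlapped by no library. A second pooled peak in the same 3' UTR, which overlapped the first, had a signal of 3.82 (rank 28705). No library overlapped it either. Downstream of php-3, at 12071979 to 12072408, a peak with a signal of 4.41 (rank 21891) was overlapped by replicate 2 at the same base (signal 4.74, rank 4368). Upstream of nob-1, a peak at 12092806 to 12093235 had a signal of 4.73 (rank 19167), 8705 bp from the nearest start, and replicate 2 had the same summit with a signal of 5.88 (rank 1895). All 4 pooled peaks of this pair were seen by replicate 2 or by no library. The best signal of 6.7, shared by php-3 and nob-1, was reached or passed by 72.5% of all protein-coding genes.

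By locus, from the first to the last base of each gene pair, pooled summits numbered 2.72 per 10 kb over ceh-13 and lin-39. They numbered 3.47 over mab-5 and egl-5, and 1.98 over php-3 and nob-1, against 3.22 on chromosome III. The mab-5 and egl-5 value includes summits in no Hox window, among them those 253 and 32 bp from the cyk-7 start. The order of the best signals was lin-39 (13.1), mab-5 (10.2), ceh-13 (7.42), egl-5 (6.95), and php-3 with nob-1 (6.7). The median of these best signals was 7.19, against 8.02 for all protein-coding genes and 8.68 for those of chromosome III. lin-39 and mab-5 were above both of these medians and the other 4 genes below them. Each signal is 1 pooled value without a replicate error, so neighbouring places in this order cannot be tested.

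Over all 26 peaks the pooled signal ran from 3.82 to 13.1 with a median of 5.27, against a median of 5.3 on chromosome III and 5.25 in the whole list. Of the 26 peaks, 13 (50%) lay above the median of the whole list, against 50.8% of chromosome III peaks. The upper 10000 ranks held 10 of them (38.5%), against 34.5% of chromosome III peaks. Hox-window peaks thus spread over the ranks much as other peaks of the chromosome did. The reproducible peaks are the 102 highest ranks of the pooled list, with signals from 18.7 to 45.5. The lin-39 peak at linc-57, with 13.1, was the nearest to that range, and 433 pooled peaks ranked above it.

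**Figure D3:**
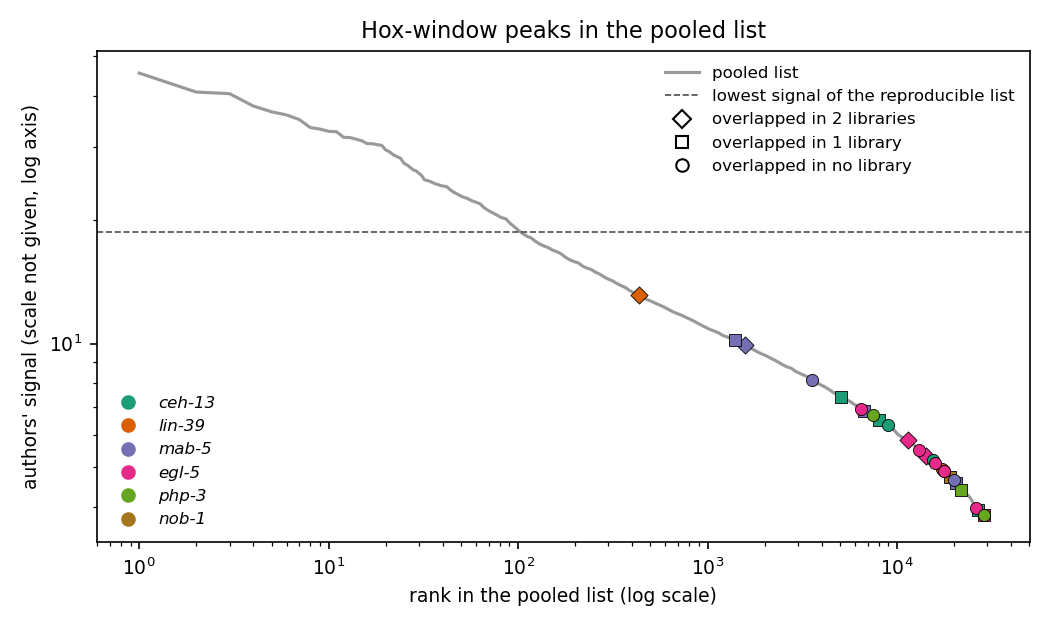
Authors' signal (y axis, log scale, unit not given) against rank in the pooled list (x axis, log scale), with the 26 Hox-window peaks drawn on the grey line of all 30000 pooled peaks. Colours give the gene and shapes the number of libraries overlapping each peak; all 26 lie below the dashed line at 18.7, the lowest reproducible signal, and lin-39 is highest at 13.1.

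Agreement between libraries was counted for the same peaks. A pooled peak was called overlapped by a library when they shared at least 1 bp. A pooled peak overlapped in 2 or more libraries lay in the windows of 3 of 6 Hox genes (lin-39, mab-5 and egl-5). The share was 47.8% of all protein-coding genes and 56.3% of those on chromosome III. A pooled peak overlapped in all 3 libraries lay in the windows of 0 of 6, against 8.63% and 12.3%. Of the 26 peaks, 13 (50%, exact binomial 95% interval 29.9 to 70.1) were overlapped in no library, against 35% on chromosome III. Another 9 (34.6%) were overlapped in 1 library and 4 (15.4%, 4.36 to 34.9) in 2, while 15.2% of chromosome III peaks were overlapped in 2 or more. The 4 peaks rest on only 3 sets of single-library peaks, because the egl-5 pair shares its own. All 3 libraries overlapped 0 of 26, which allows a share of up to 11.5% by a limit of 3 counts (exact upper bound 13.2%), and 2.55% of chromosome III peaks did so. The share overlapped in no library was higher in the Hox windows than on the chromosome, but its interval included the chromosome's value. In the upper 10000 ranks, 4 of 10 Hox-window peaks (40%) were overlapped in no library, against 13% of all pooled peaks there. Overlap in 2 or more libraries was found for 2 of the 10 (20%), against 31.6%. In the other ranks, 9 of 16 (56.2%) were overlapped in no library, against 47.1%. There the egl-5 pair (12.5%) was overlapped in 2 or more, against 6.33%. These parts were not tested.

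By library, replicate 2 overlapped 11 of the 26 peaks (42.3%, 23.4 to 63.1), against 40.2% on chromosome III. Replicate 1 overlapped 5 (19.2%, 6.55 to 39.4), against 25.1%. Replicate 4 overlapped 1 (3.85%, 0.0973 to 19.6), against 17.3%. Every interval included its chromosome value. For scale, a 430 bp peak placed at a chromosome III position would touch the list of replicate 1 at 8.68% of positions, of replicate 2 at 11.9% and of replicate 4 at 6.32%. The shares of Hox-window peaks stood above these values for replicates 1 and 2 and below for replicate 4, on 5, 11 and 1 peaks and without a test.

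**Figure D4:**
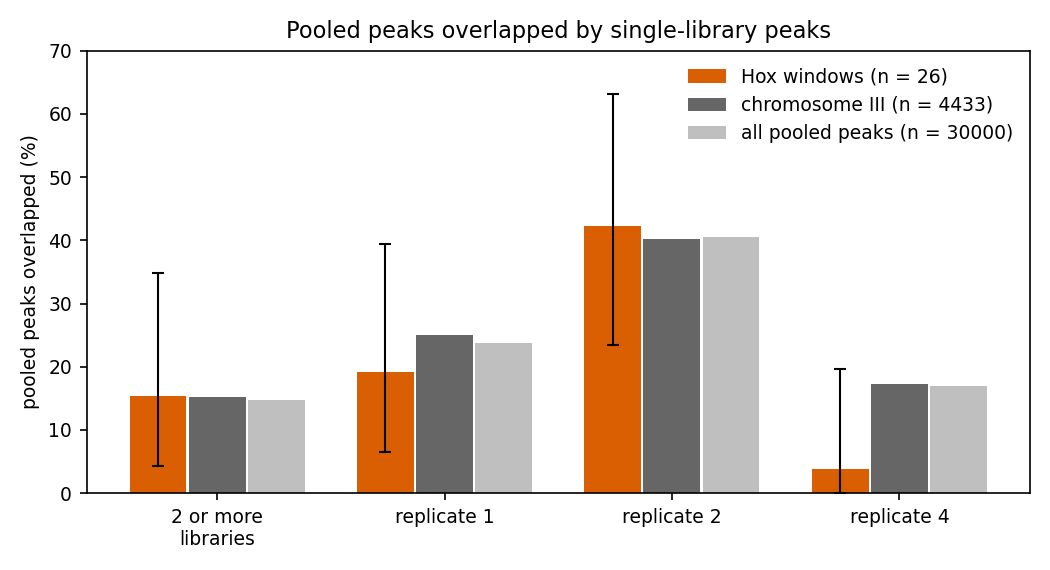
Share of pooled peaks (y axis, percent) overlapped in 2 or more libraries and in each replicate (x axis), for the 26 Hox-window peaks, the 4433 chromosome III peaks and all 30000 peaks; error bars are exact binomial 95% intervals for the Hox windows. The Hox bar for replicate 2 is at 42.3% and that for replicate 4 at 3.85%, and every interval spans the chromosome III bar.

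Read from the single libraries, replicate 1 had 11 summits in the Hox windows, of which 4 had a pooled partner and 7 had none. On chromosome III, 72% of replicate 1 peaks had one. Of 13 replicate 2 summits, 10 had a pooled partner, against 81.4% on the chromosome, and of 3 replicate 4 summits 1 had, against 66.6%. Fewer Hox-window summits had a partner than had none in replicates 1 and 4, unlike on the chromosome. No interval was computed for these shares, and the difference was not tested. A peak of another library was overlapped by 3 of the 11, 3 of the 13 and 0 of the 3. In replicates 1 and 2 these 3 summits were those at linc-57 upstream of lin-39, 988 bp upstream of mab-5 and upstream of egl-5.

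Hox-window summits lay mostly outside protein-coding genes, which is what intergenic means here, and the 2 pooled summits in linc-57 count as intergenic. Of the 26, 20 (76.9%, 56.4 to 91) were intergenic, 3 intronic (in ceh-13, mab-5 and egl-5), 2 in the 3' UTR of php-3, 1 in the promoter of bath-15 and 0 in a coding exon. On chromosome III 22.9% of summits were intergenic, a share below that interval. The Hox loci are themselves gene-poor, and 59.8% of the window positions were intergenic, against 24% of chromosome III. Per length of intergenic DNA the counts were close, 3.11 summits per 10 kb in the Hox windows and 3.06 on the chromosome. Within 500 bp of protein-coding starts the windows held 0.879 per 10 kb, against 4.06, and in introns 1.23, against 2.75, on 1 and 3 summits.

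Measured from the nearest Hox start, 16 summits lay upstream and 10 downstream, at a median distance of 3542 bp. No summit lay within 500 bp of a Hox start, the nearest being at 542 bp (ceh-13), and 7 lay within 2000 bp. A Hox gene had the nearest protein-coding start for 20 of the 26 summits, and for the other 6 it was bath-15, cyk-7 or egl-45.

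Short motifs were counted within 100 bp of each summit on both strands. Hox proteins bind DNA together with PBX-type partners (ceh-20 and ceh-40 in the worm), and their joint site was searched as TGATTAAT, TGATTGAT, TGATTTAT and TGATGGAT. It was found at 4 of 26 Hox-window summits (15.4%, 4.36 to 34.9), against 5.39% on chromosome III and 5.4% of all pooled summits. The 4 were the peak shared by ceh-13 and lin-39, those 1727 bp and 542 bp upstream of ceh-13, and the one downstream of php-3. The GATA site, the letters bound by GATA factors (GATA after A or T and before A or G), was found at 7 (26.9%, 11.6 to 47.8), against 34.1% on the chromosome. A GATA site can overlap a Hox and PBX site, as it does in the ceh-13 sequence above.

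GAGAGA, found at 46.1% of the 102 reproducible summits, was found at 5 Hox-window summits (19.2%, 6.55 to 39.4), against 15.9% on chromosome III. CTTTGA, the site of the Wnt pathway factor POP-1, was found at 2 (7.69%, 0.946 to 25.1), against 13.1%. CACGTG was found at 2 (7.69%), against 4.06%, and GGGCGG at 3 (11.5%, 2.45 to 30.2), against 4.4%, including the mab-5 peak 988 bp upstream of the start. For every motif the interval included the chromosome's share, and median GC content was 37.5% in the Hox windows, against 36.3% on the chromosome. A match describes letters in the sequence and does not show a binding site.

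The genes that act with the Hox genes were described from a list of 34, all of which matched the annotation: Hox cofactors, Polycomb-like silencers, Trithorax-like activators, upstream regulators and downstream targets. A reproducible peak lay in the windows of 2 of the 34, against 2.1% of all protein-coding genes, and both are Trithorax-like genes. The list was fixed with earlier results of these data known, so these counts only describe it and were not tested. For set-16, which encodes an MLL-type histone methyltransferase, it lay on chromosome III at 13643565 to 13643994, 136 bp upstream of the start, with a pooled signal of 23.3 (rank 46). Replicates 1, 2 and 4 overlapped it with signals of 8.56, 9.51 and 6.48. For lin-59, an Ash1-type gene needed for Hox expression, it lay on chromosome I at 3721486 to 3721915, 544 bp upstream, with a pooled signal of 20.7 (rank 76). The libraries overlapped that peak with signals of 6.37, 15.4 and 3.05.

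Both peaks were therefore in all 3 single-library lists, and no Hox-window peak was. Another gene with a peak in all 3 libraries was mig-13, which guides Q neuroblast migration and is regulated by mab-5 and lin-39. That peak lay on the X chromosome at 4795316 to 4795745, 3821 bp downstream of the start, with a pooled signal of 14.5 (rank 283) and library signals of 5.43, 3.27 and 4.42. It was closer to another gene, F43C9.1, at 2252 bp. These 3 of 34 genes (8.82%) stand against 8.63% of all protein-coding genes.

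Over the list as a whole, 34 of 34 genes had a pooled summit, against 98.9% of all protein-coding genes. Replicate 1 had a summit in the windows of 31 of the 34, against 83%. For replicate 2 it was 32, against 90.9%, and for replicate 4 it was 24, against 68%. The median was 6 pooled summits, the same as for all protein-coding genes. A pooled peak overlapped in 2 or more libraries lay in the windows of 19 (55.9%), against 47.8%. By role these were 5 of 5 cofactors (ceh-20, ceh-40, ceh-60, unc-62 and psa-3), 5 of 8 Polycomb-like genes, 4 of 6 Trithorax-like genes, 3 of 8 upstream regulators and 2 of 7 downstream targets. The cofactors had no peak in all 3 libraries. Windows of unc-62 and psa-3 were 29.7 and 29.6 kb long, against a median of 20 kb over all protein-coding genes. The other cofactors had windows of 20 kb.

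For each Hox gene the protein-coding gene with the nearest counts in the pooled list and in replicates 1, 2 and 4 was looked up, with ties settled by the closest best signal. Every Hox gene had genes with identical counts in all 4 lists, 56 for ceh-13, 32 for lin-39, 8 for mab-5, 15 for egl-5, 84 for php-3 and 125 for nob-1. The closest by signal were str-136 for ceh-13 (best signal 7.44), nas-12 for lin-39 (12.5) and nhr-14 for mab-5 (9.96). They were zig-6 for egl-5 (6.84), K08D10.11 for php-3 (6.7) and nspd-10 for nob-1 (6.73). The likeness is one of 4 counts and a signal over 3 libraries, and carries no statement on function.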

How the data were processed

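EGL-27 ChIP-seq peak lists from 3 L4 libraries of a strain with GFP-FLAG-tagged EGL-27 were used as the authors deposited them. Per the deposited README texts, a control and each library's alignment gave that library's list, and the same control and all 3 alignments gave the pooled list, which stops at 30000 peaks and holds background by its deposited name. IDR then gave the reproducible list, per the same texts. Not given in the sources used here: aligner, peak caller, versions, thresholds. The control was not analysed here.

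The deposited signal is the authors' value for each peak, of unstated scale, and ranks peaks within 1 list only. The deposited q column was read as a score and used only in an alternative ranking. Peak coordinates are on ce11, per the labels, and are printed 1-based. The ce10 lists were not used. Lists differ in length, and library depth is unknown because no read counts were used. Nothing was normalized between libraries. The sequence under the lin-39 summit is not reported here.

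Genes came from Ensembl release 115 (WBcel235, 46926 genes). A pooled and a single-library peak matched at an overlap of 1 bp or more. A summit at most 500 bp from a start of a protein-coding gene was classed as promoter. Failing that, it took the first of these classes that applied: 5' UTR, then coding exon, then 3' UTR, then intron, then intergenic. Classes used protein-coding genes only, so a summit in a non-coding gene could be intergenic. Windows of each Hox window's length were laid end to end along chromosome III. The counting code was tested on simulated peaks. Intervals are exact (Poisson or Clopper-Pearson, 95%), cover counting error only, and were computed with Python 3.11.15, numpy 2.4.6, scipy 1.17.1 and pandas 2.3.3; plots used matplotlib 3.10.9. With 1 group of libraries no test was made.

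The members and lists were chosen with earlier results of these data known. Named items were the 6 Hox genes, per gene the 2 pooled peaks of highest signal, pathway genes with a reproducible peak or a peak in all 3 libraries, and 1 gene of most similar counts per Hox gene. Alternatives covered window size, overlap rule, list depth, ranking column, motif distance, the genes compared and leaving out each replicate.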

Additional observations from a re-analysis of the deposited data

How the results depend on the processing

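Of 62 alternative values, 40 stayed near the reported one, 22 moved and 0 reversed. The 26 pooled summits became 14 in windows of the gene body and 5000 bp around its starts, and 10 with 2000 bp in place of 5000 bp, by construction of the smaller windows. They were 10 in the upper 10000 of the list by signal and 7 in the upper 10000 by the q column score. Pooled peaks in 2 or more libraries numbered 2, in place of 4, with summits within 100 bp and with the upper 5000 peaks of each library. Pooled peaks in every library used numbered 0 to 4 when 1 replicate was left out, with 4 without replicate 4. Single-library summits fell to 7 in the upper 5000 peaks and 6 in the gene body and 5000 bp windows for replicate 1, against 11 reported. They fell to 6 in the upper 5000 peaks and 4 in those windows for replicate 2, against 13, and to 1 in those windows for replicate 4, against 3. The reproducible count stayed 0 in windows of the gene body and 20000 bp, and with the nearest start. Motif counts at 50 bp in place of 100 bp were 3 for the GATA site, 1 for the Hox and PBX site, 0 for CTTTGA, 1 for CACGTG and 1 for GGGCGG. The GATA count was 11 at 150 bp. The share of genes with as many summits, a median of 75.8% over the Hox genes, was 82.6% among genes of chromosome III, 81.3% among its windows and 73.4% per 10000 bp. The pooled and reproducible lists could not be made anew without a replicate, since reads were not used. Depth is unknown, and the counts of 0 to 26 per list limit what can be seen at the Hox genes.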

Other observations

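The q column of the pooled list did not follow the signal throughout. It was not negative for 887 peaks, all with a signal of at least 11.2, and there it ranked the peaks as the signal did (Spearman's rho 1 across peaks, which are not independent). For the other 29113 peaks it was negative and fell as the signal rose (rho -0.87). Of the 26 Hox-window peaks, the linc-57 peak of lin-39 was the single one above that point. Ranked by this column, the best rank of egl-5 was 2447 in place of 6489 and that of php-3 and nob-1 was 2544 in place of 7435, held by peaks with a signal of 3.82. The best rank of mab-5 was 8432 in place of 1393.

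Between the windows of mab-5 and egl-5, and in neither, a pooled peak at 7794828 to 7795257 on chromosome III lay 253 bp from the start of cyk-7. It had a pooled signal of 7.41 (rank 5114), and replicates 2 and 4 overlapped it with signals of 4.73 and 2.46.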
